A study of Mus musculus with 10 samples.

Results

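Cytochrome P450 families 1 to 3 are the drug- and lipid-metabolising monooxygenases of the liver, and they were followed here as the 53 genes whose symbols begin with Cyp1, Cyp2 or Cyp3 followed by a subfamily letter and a number. They are 53 of the 17359 genes in the deposited table: 3 of family 1, 42 of family 2 and 8 of family 3, in 15 subfamilies, of which 8 had 1 member. All livers came from mice on a high-fat diet. The refed group (RF, n = 3) was taken at day 7 of a weekly feeding cycle, the restricted group (LC, n = 4) at day 3 of that cycle, and the control group (AL, n = 3) from mice fed ad libitum. Calories were cut by 50% on the first day of the cycle and on day 4, by 70% on the days between them, and feeding was free from day 5 to day 7. The labels give no strain, sex, age or hour of collection. Nothing in them says that each sample of a group was a different mouse, so every p-value rests on a spread between samples that may be technical.

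These enzymes sit in the membrane of the endoplasmic reticulum, bind heme, and insert 1 atom of oxygen into a substrate with electrons passed on by P450 oxidoreductase and cytochrome b5. Families 1 to 3 handle most drugs and dietary chemicals, and several members also oxidise steroids, bile acids, arachidonic acid and vitamin D. Nuclear receptors that sense chemicals set the level of many of them: CAR (Nr1i3) is best known for Cyp2b10, PXR (Nr1i2) for Cyp3a11, and the aryl hydrocarbon receptor (Ahr) for Cyp1a1 and Cyp1a2. Growth hormone, released in different patterns in male and female mice, sets others.

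Many members arose by local duplication, and their likeness decides how well reads can be told apart. Within subfamilies, aligned coding sequences were from 55.8% (Cyp2d34 and Cyp2d40) to 99.9% (Cyp3a41a and Cyp3a41b) identical. Capitals below mark the bases that differ within a pair. The first 150 coding bases of 3 pairs, from GENCODE mouse release M21, are shown as examples. Cyp2a4 and Cyp2a5, on chromosome 7, differed at 2 of these bases, and over the whole coding sequence they were 98.4% identical.
Cyp2a4: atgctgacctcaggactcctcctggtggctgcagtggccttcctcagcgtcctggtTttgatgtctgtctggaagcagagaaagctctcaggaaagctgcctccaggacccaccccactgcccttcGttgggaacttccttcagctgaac
Cyp2a5: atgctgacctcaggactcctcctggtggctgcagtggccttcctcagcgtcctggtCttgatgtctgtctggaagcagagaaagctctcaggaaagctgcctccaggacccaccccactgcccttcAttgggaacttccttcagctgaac
Cyp2b9 and Cyp2b10, also on chromosome 7, differed at 26 of these bases and were 86.2% identical over the coding sequence.
Cyp2b9: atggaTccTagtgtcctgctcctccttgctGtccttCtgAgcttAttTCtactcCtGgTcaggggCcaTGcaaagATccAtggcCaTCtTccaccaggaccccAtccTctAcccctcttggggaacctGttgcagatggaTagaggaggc
Cyp2b10: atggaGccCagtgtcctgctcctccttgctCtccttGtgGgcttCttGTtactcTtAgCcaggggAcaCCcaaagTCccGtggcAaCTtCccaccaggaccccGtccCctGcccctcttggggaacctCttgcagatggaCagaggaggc
Cyp2j9 and Cyp2j8, on chromosome 4, differed at 40 of these bases and were 77.2% identical over the coding sequence.
Cyp2j9: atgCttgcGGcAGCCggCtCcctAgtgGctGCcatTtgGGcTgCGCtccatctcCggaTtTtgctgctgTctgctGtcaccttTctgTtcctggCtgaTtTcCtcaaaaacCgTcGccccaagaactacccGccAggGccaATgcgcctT
Cyp2j8: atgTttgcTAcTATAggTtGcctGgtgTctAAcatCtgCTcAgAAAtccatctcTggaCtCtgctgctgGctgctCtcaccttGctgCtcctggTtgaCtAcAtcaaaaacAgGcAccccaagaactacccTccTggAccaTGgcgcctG

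Members differed in how much of their sequence also occurred in another gene. Of all stretches of 100 bases in a member's transcript, 90.8% in Cyp3a41a and 88.2% in Cyp3a41b also occurred in another gene, the highest shares among members. The share was 44.1% for Cyp2c40, 36.3% for Cyp2c69, 23.7% for Cyp2c67, 14.4% for Cyp2a5 and 11.2% for Cyp2a4. Cyp3a25 shared 6.05% of its stretches, mostly with Cyp3a59, and Cyp2a12 shared 6.83%, mostly with Cyp2a22. No such stretch was shared by 20 members, among them Cyp2c70, Cyp2c29, Cyp2c23, Cyp2c55, Cyp2j5, Cyp2j9 and Cyp2j8. Of the 33 members with a shared stretch, 21 had an estimated count that was not a whole number in at least 1 library, against 3 of the 20 members with none. Cyp2d40 and Cyp3a13, without a shared stretch, had such counts in all 10 libraries, while Cyp3a41a and Cyp3a41b had whole counts only. No source used here gives the read length, so 100 bases is a yardstick and not the length the reads had.

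Promoter sequences from RefSeq (GRCm38.p6, 250 bases before to 50 after the start of the gene) were found for 46 of the 53 members. They were read for 4 motifs on both strands. CAAAGTCCA or CAAAGTTCA, letters bound by HNF4, stood in 9 of 46 members (19.6%) and in 0.862% of all 27025 promoters. Those 9 were Cyp2c40, Cyp2c65, Cyp2c67, Cyp2c68, Cyp2c69, Cyp2c70, Cyp3a11, Cyp3a41a and Cyp3a41b, several of which are close copies of each other. The D-box letters TTATGTAA or TTACGTAA were in 0 members, against 1.06% of all promoters, and the HNF1 motif was in 0 members, against 0.00740%. TNGCGTG, the response element of the aryl hydrocarbon receptor, was in 1 member (2.17%), Cyp2c68, against 5.12% of all promoters. None of the 4 motifs contains another. The promoter of Cyp2c70, the member with the smallest adjusted p at RF against LC, and those of Cyp2j9 and Cyp2j5, which moved in opposite directions, are shown with HNF4 letters in capitals. They lie on the minus strand at chr19:40187237-40187536 for Cyp2c70, chr4:96591436-96591735 for Cyp2j9 and chr4:96664070-96664369 for Cyp2j5.
Cyp2c70: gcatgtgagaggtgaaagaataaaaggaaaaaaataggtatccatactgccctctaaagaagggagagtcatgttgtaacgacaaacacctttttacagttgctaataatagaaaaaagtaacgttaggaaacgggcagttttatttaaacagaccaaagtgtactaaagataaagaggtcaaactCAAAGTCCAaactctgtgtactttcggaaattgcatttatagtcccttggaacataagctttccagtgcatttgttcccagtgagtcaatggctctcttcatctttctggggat
Cyp2j9: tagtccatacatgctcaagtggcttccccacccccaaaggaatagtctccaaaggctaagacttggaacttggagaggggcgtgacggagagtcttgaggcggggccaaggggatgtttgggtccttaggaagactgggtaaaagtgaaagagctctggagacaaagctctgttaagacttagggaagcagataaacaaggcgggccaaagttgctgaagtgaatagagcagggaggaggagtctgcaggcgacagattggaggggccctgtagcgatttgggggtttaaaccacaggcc
Cyp2j5: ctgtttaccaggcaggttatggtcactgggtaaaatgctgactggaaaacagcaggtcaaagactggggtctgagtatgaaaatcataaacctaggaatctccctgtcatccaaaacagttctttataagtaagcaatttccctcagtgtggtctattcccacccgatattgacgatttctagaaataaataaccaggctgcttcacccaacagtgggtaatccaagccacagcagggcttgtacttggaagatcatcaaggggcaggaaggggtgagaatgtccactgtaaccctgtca
Among the promoters of these 3 genes only that of Cyp2c70 held one of the 4 motifs, and a match in letters is not evidence of binding.

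Library totals lay between 13871533 and 15899479 estimated counts. The members took 1.82 to 2.16% of all counts at RF, 1.97 to 2.53% at LC and 1.69 to 2.40% at AL, and the 3 groups overlapped. Levels of single members are given as CPM, counts per 1e6 with edgeR's TMM scaling, and levels compared between genes as the deposited FPKM, which divides by transcript length. The hepatocyte identity of the samples was plain: 11 hepatocyte markers summed to 92694 to 97859 CPM at RF, 70203 to 82453 CPM at LC and 102787 to 117215 CPM at AL. Of the 11, 8 were lower at LC than at AL. Of 8 markers of sinusoidal endothelium, 5 were higher at LC than at AL, and their sum was 252 to 284 CPM at RF, 296 to 322 CPM at LC and 188 to 205 CPM at AL. Markers of adipocytes summed to 22.5 to 33.1 CPM at RF, 22.7 to 39.7 CPM at LC and 77.5 to 169 CPM at AL, with 2 of the 3 tested lower at LC than at AL. Of 8 markers of stellate cells and fibroblasts, 4 were higher at RF than at LC, and their sum was 212 to 247 CPM at RF, 134 to 175 CPM at LC and 166 to 180 CPM at AL. At LC against AL, 1 of 8 Kupffer cell and macrophage markers was lower and 1 of 4 tested cholangiocyte markers was higher. There 0 of 4 tested lymphocyte markers were called. Of all genes tested, 16.0% were higher and 15.6% lower at LC against AL. At RF against LC these shares were 11.4% and 10.7%. The kidney markers measured were at 0 in every RF and LC library and summed to at most 0.138 CPM at AL. Fewer cells of a type and less RNA per cell cannot be told apart in such bulk samples, and the part of these markers in the results below was not tested.

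Cyp2e1, which oxidises ethanol and acetone, stood far above the other members per length, at 6377 ± 732 FPKM at RF, 6816 ± 1304 FPKM at LC and 7359 ± 1781 FPKM at AL (SD, n = 3, 4 and 3). In CPM its libraries held 9732, 8972 and 11234 at RF, 7499, 9011, 8448 and 12318 at LC, and 8618, 16176 and 12780 at AL. The groups overlapped, and the log2 change of −0.43 ± 0.21 (SE) at LC against AL had an adjusted p of 0.134 in edgeR's quasi-likelihood test. It was called lower at LC when LC replicate 4, the highest LC library, or AL replicate 2, the lowest AL library, was left out. Mean levels of at least 100 FPKM were reached by 21 members, and 20 members stayed under 1 FPKM.

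Individual members differed between LC and AL in both directions. At LC against AL, 4 members were higher (Cyp2b9, Cyp2j8, Cyp2j9 and Cyp3a25) and 11 were lower (Cyp1a2, Cyp2a12, Cyp2c23, Cyp2c29, Cyp2c55, Cyp2c70, Cyp2d12, Cyp2f2, Cyp2j5, Cyp2r1 and Cyp2u1). These were 15 of the 44 members that passed the filter on low counts, or 34.1%, against 31.5% of all 12789 genes tested (16.0% higher and 15.6% lower), with an adjusted p under 0.05 in edgeR's quasi-likelihood test after Benjamini-Hochberg adjustment. The median log2 change was 0.07 over the members tested and 0.05 over all genes. The share of members called was near that background. The split between directions depended on scaling: with library totals alone, which shifted the median of all genes by 0.31, 13 members were called higher and 9 lower, beside 4395 of all genes higher and 686 lower.

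After refeeding, 8 members were higher at RF than at LC (Cyp1a2, Cyp2c29, Cyp2c55, Cyp2c70, Cyp2f2, Cyp2j5, Cyp2r1 and Cyp2u1) and 5 were lower (Cyp2a22, Cyp2j8, Cyp2j9, Cyp3a25 and Cyp3a59). They made up 29.5% of the 44 members tested, against 22.1% of all genes (11.4% higher and 10.7% lower). In that comparison the groups did not overlap for any of the 13 members called, which were picked by p from these same libraries. The groups were also apart for Cyp2b9, Cyp2c23 and Cyp2c50, which were not called. The share of all genes with groups apart was not computed, so these separations add no support to the calls. No member passed at RF against AL in edgeR, where 0.0547% of all genes did, 0.0156% higher and 0.0391% lower. There 7 members had an unadjusted p under 0.05, and DESeq2 called 1, Cyp2d12. The 3 comparisons share their samples, so the same libraries stand behind the changes into and out of restriction. In all, 17 members were called in at least 1 comparison and 27 of those tested in none. The 9 members below the filter were Cyp2b13, Cyp2c65, Cyp2j11, Cyp2j13, Cyp2s1, Cyp2t4, Cyp3a41a, Cyp3a41b and Cyp3a44, with no more than 18 counts in any library.

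**Figure D1:**
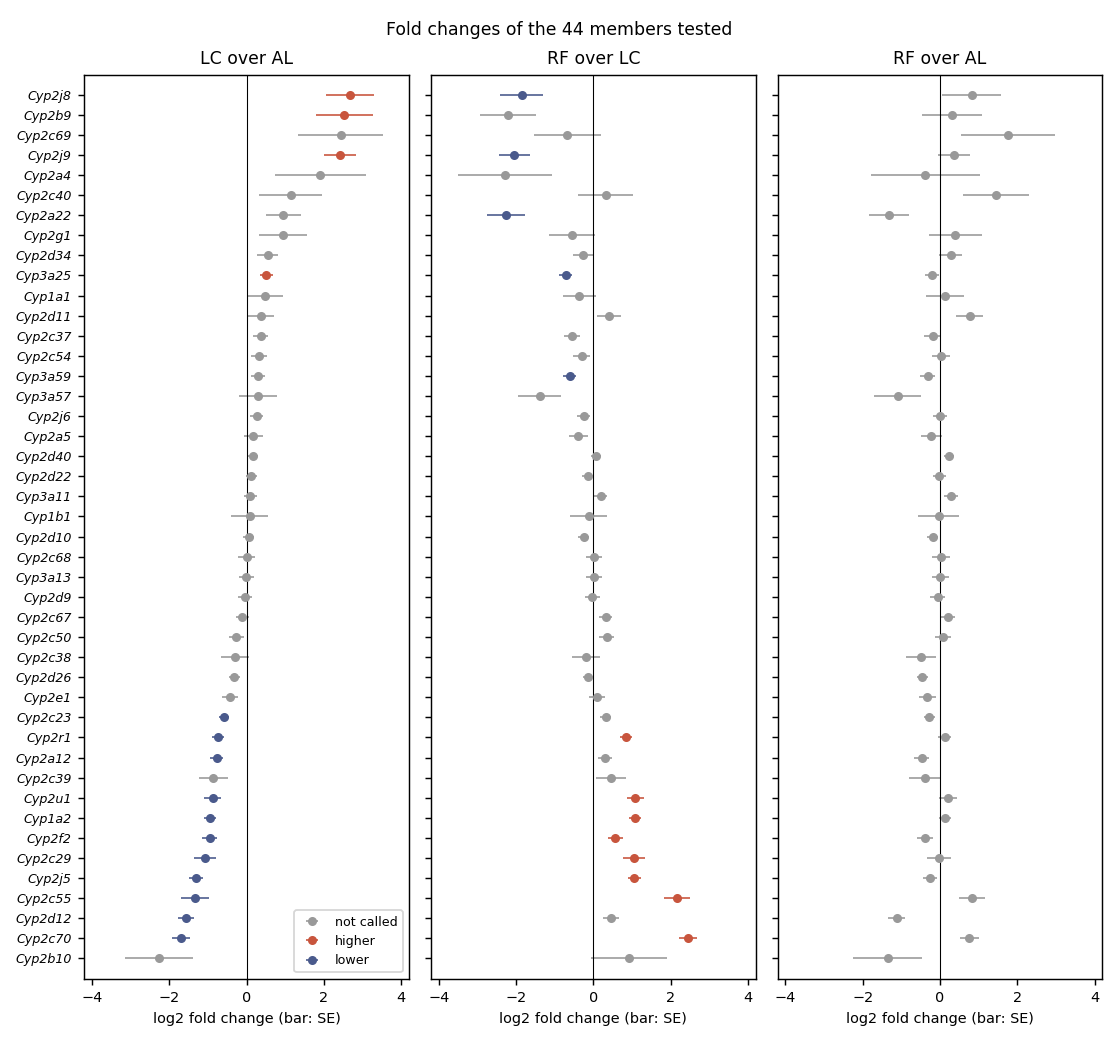
Log2 fold change (horizontal axis, bars are standard errors) of the 44 members tested, ordered by their change at LC over AL, with red for members called higher, blue for members called lower and grey for members not called. The panels compare LC with AL, RF with LC and RF with AL: 15 members are coloured in the first, 13 in the second and 0 in the third.

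In the Cyp2j subfamily 2 members changed in opposite directions. Of its 4 members tested, 3 were called at LC against AL (75%, against 31.5% of all genes). Cyp2j enzymes oxidise arachidonic acid, Cyp2j5 to epoxides in liver and kidney, while Cyp2j9 is best known from mouse brain. Cyp2j9 had 43.6, 37.0 and 30.9 CPM at RF, 223, 99.1, 145 and 146 CPM at LC, and 48.9, 21.7 and 15.9 CPM at AL. Every LC library lay above every library of the other groups. Its log2 change was 2.41 ± 0.41 at LC against AL (SE, adjusted p = 0.00299), a 5.32-fold rise, and −2.04 ± 0.40 at RF against LC (adjusted p = 0.00863). Cyp2j5 moved the other way, at 445, 433 and 430 CPM at RF, 166, 246, 227 and 200 CPM at LC, and 384, 634 and 542 CPM at AL. All 4 LC libraries were below the other 6. It changed by −1.31 ± 0.17 at LC against AL (adjusted p = 0.000321) and by 1.06 ± 0.17 at RF against LC (adjusted p = 0.00178). These 4 calls held under all 20 alternatives tried.

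Per length, Cyp2j9 made up 10.9 ± 1.43% of the FPKM of its subfamily at RF, 46.3 ± 9.23% at LC and 8.11 ± 6.31% at AL (SD). Cyp2j5 made up 76.4 ± 2.72% at RF, 37.8 ± 10.4% at LC and 80.3 ± 7.43% at AL. The LC libraries did not overlap the others in either share. Cyp2j6, another abundant member, was not called, and its levels were 111, 101 and 82.3 CPM at RF, 150, 88.2, 109 and 120 CPM at LC, and 90.7, 105 and 97.5 CPM at AL. The summed FPKM of the subfamily was 220 ± 8.33 at RF, 243 ± 42.3 at LC and 228 ± 22.8 at AL, with overlapping groups. Cyp2j8, under 5 CPM and named after its values were seen, had 0.711, 0.599 and 0.268 CPM at RF, 3.20, 0.862, 1.67 and 1.95 CPM at LC, and 0.667, 0.078 and 0.138 CPM at AL. Its LC libraries were the highest. It rose by 2.67 ± 0.62 on the log2 scale at LC against AL (adjusted p = 0.00645). Its fall of −1.85 ± 0.56 at RF against LC (adjusted p = 0.0305) ended when LC replicate 1 or 4 was left out, and likewise any RF replicate, with an adjusted p of up to 0.117.

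**Figure D2:**
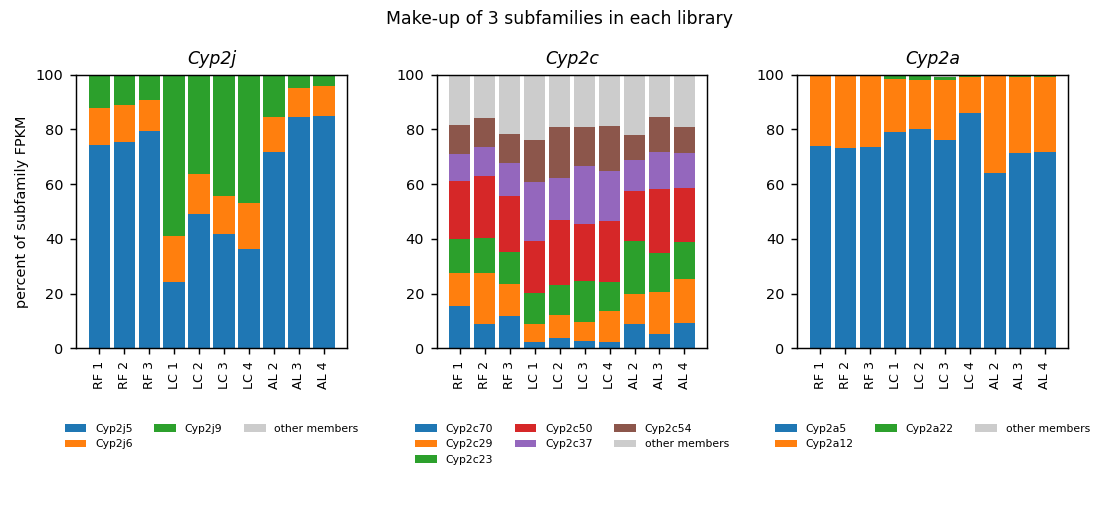
Percent of the summed FPKM of 3 subfamilies (vertical axis) taken by their main members in each library (RF, LC and AL along the horizontal axis), with the remaining members in grey. Cyp2j9 takes 36.1 to 58.4% of the Cyp2j total in the LC libraries, against 9.36 to 12.2% at RF and 4.09 to 15.4% at AL.

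The Cyp2c subfamily, with 14 members on chromosome 19, oxidises arachidonic acid and many drugs. At LC against AL, 4 of the 13 members tested were lower and 0 higher, or 30.8% called, and at RF against LC 3 were higher and 0 lower, or 23.1%. Both shares were near those of all genes, 31.5% and 22.1%. Cyp2c70 makes muricholic acids, the rodent bile acids, from chenodeoxycholic acid. It had 366, 194 and 296 CPM at RF, 47.7, 70.4, 43.2 and 47.7 CPM at LC, and 154, 141 and 213 CPM at AL. The LC libraries lay below the others, and RF replicates 1 and 3 lay above every AL library. The log2 change was −1.70 ± 0.23 at LC against AL (SE, adjusted p = 0.000462) and 2.45 ± 0.23 at RF against LC (adjusted p = 0.000119), and both calls held under all 20 alternatives. At RF against AL it was 0.75 ± 0.24 (adjusted p = 0.321).

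Cyp2c29, an epoxygenase that phenobarbital raises through CAR, had 317, 452 and 338 CPM at RF, 141, 169, 142 and 255 CPM at LC, and 214, 486 and 424 CPM at AL. AL replicate 2 lay below LC replicate 4, so LC and AL overlapped, while RF and LC did not. Its log2 change was −1.09 ± 0.28 at LC against AL (adjusted p = 0.0149), lost without AL replicate 3 (adjusted p = 0.0758) or AL replicate 4 (0.0611) and on FPKM (up to 0.0794). At RF against LC it was 1.06 ± 0.28 (adjusted p = 0.0226), lost without LC replicate 1, 2 or 3 or RF replicate 2, with an adjusted p of up to 0.0890. Cyp2c23, another epoxygenase of arachidonic acid, had 368, 346 and 374 CPM at RF, 295, 260, 336 and 274 CPM at LC, and 429, 493 and 392 CPM at AL. The LC libraries were the lowest, and the fall of −0.59 ± 0.13 at LC against AL (adjusted p = 0.00503) was lost with library totals (−0.26, adjusted p = 0.140) and on FPKM.

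Cyp2c55 was scarce, at 2.63, 2.80 and 1.87 CPM at RF, 0.377, 0.677, 0.754 and 0.314 CPM at LC, and 1.11, 1.33 and 1.66 CPM at AL. The 3 groups did not overlap. It changed by −1.34 ± 0.37 at LC against AL (adjusted p = 0.0141), lost without AL replicate 4 (adjusted p = 0.0686), and by 2.17 ± 0.34 at RF against LC (adjusted p = 0.00154). Cyp2c50 was the subfamily's highest member per length, at 357 ± 8.21 FPKM at RF, 341 ± 20.2 FPKM at LC and 307 ± 85.2 FPKM at AL, and was not called with all libraries. Cyp2c37 had 276, 261 and 346 CPM at RF, 503, 338, 436 and 449 CPM at LC, and 231, 434 and 344 CPM at AL. RF replicate 3 lay above LC replicate 2, so the groups overlapped, and the change of −0.55 ± 0.20 at RF against LC missed the threshold (adjusted p = 0.0657), though 9 of the 20 alternatives called it lower. At LC against AL it was called higher with library totals and in the 3 fits on FPKM. Cyp2c54 had 175 ± 13.1 FPKM at RF, 256 ± 23.2 FPKM at LC and 157 ± 51.5 FPKM at AL and was not called in edgeR's test, while 5 of the 20 alternatives called it higher at LC against AL. Cyp2c37, Cyp2c50 and Cyp2c54 are 96.1% (Cyp2c37 and Cyp2c50) and 95.2% (Cyp2c50 and Cyp2c54) identical in coding sequence, so reads between them may have been split.

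**Figure D3:**
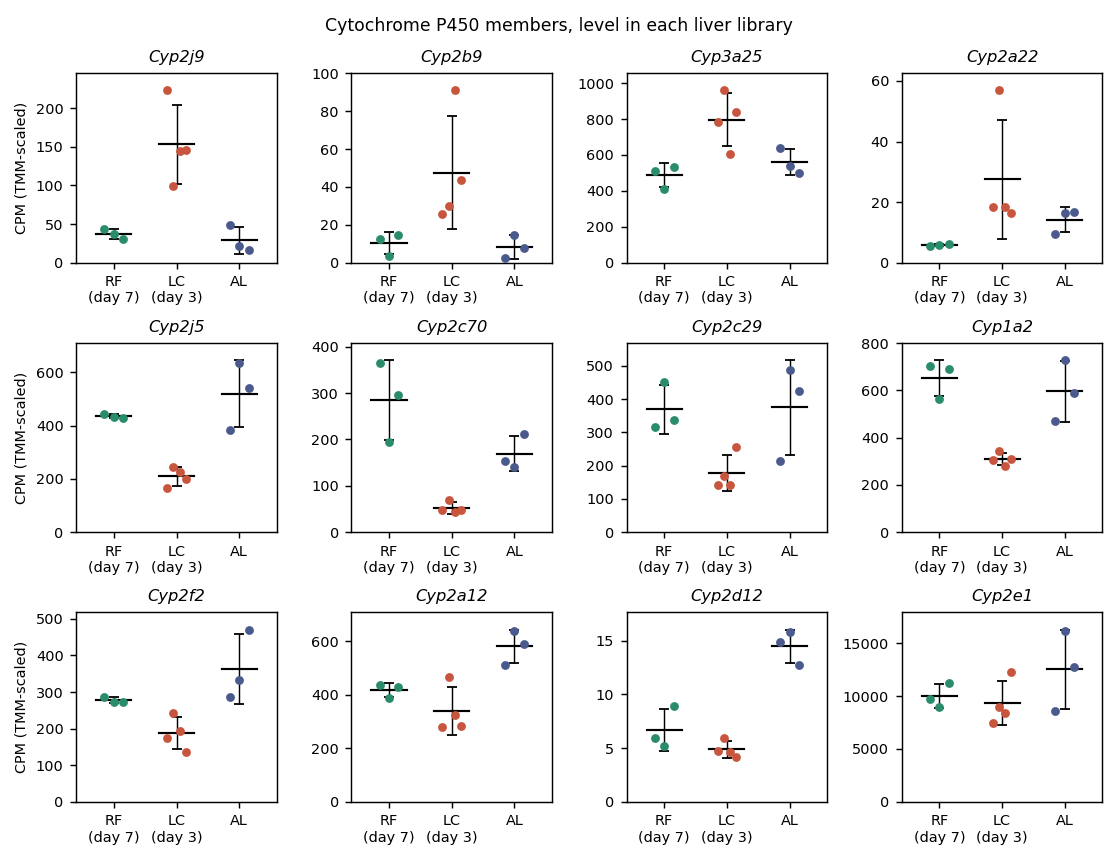
TMM-scaled CPM (vertical axis, from 0) of 12 members in each library, with points for the libraries of RF, LC and AL, a line for the group mean and bars for 1 SD. The LC libraries of Cyp2j9 lie between 99.1 and 223 CPM, above all other libraries, and those of Cyp2c70 between 43.2 and 70.4 CPM, below all others, while Cyp2e1 overlaps between the 3 groups.

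In the Cyp2b subfamily, Cyp2b9 was called higher at LC and Cyp2b10 was scarce in all groups. Cyp2b10 is the classical target of CAR in mouse liver, and Cyp2b9 is higher in female mice. Cyp2b9 had 12.4, 3.66 and 14.9 CPM at RF, 25.6, 30.0, 91.0 and 43.8 CPM at LC, and 2.52, 14.8 and 7.59 CPM at AL. Every LC library lay above the other 6. The log2 change was 2.52 ± 0.74 at LC against AL (SE, adjusted p = 0.0343), and −2.21 ± 0.72 at RF against LC (adjusted p = 0.0634), where 7 of the 20 alternatives called it lower. The first call did not survive the fit without a filter, the 2 groups alone, or leaving out LC replicate 3, either of AL replicates 2 and 4, or either of RF replicates 1 and 3, with an adjusted p of up to 0.116. Cyp2b10 had 0.0711, 0.999 and 0.736 CPM at RF, 0.126, 0.308, 0.0539 and 0.816 CPM at LC, and 0.297, 3.12 and 1.31 CPM at AL. Its groups overlapped, and the log2 change was −2.27 ± 0.88 at LC against AL (adjusted p = 0.0729). DESeq2 called it lower, and so did edgeR without AL replicate 2 or without LC replicate 4.

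Cyp1a2, which clears caffeine and aromatic amines, had 702, 565 and 690 CPM at RF, 305, 342, 282 and 312 CPM at LC, and 472, 729 and 589 CPM at AL. The LC libraries were the lowest. It changed by −0.94 ± 0.15 at LC against AL (adjusted p = 0.000935) and by 1.07 ± 0.15 at RF against LC (adjusted p = 0.000949), under all 20 alternatives. Cyp1a1, the inducible member of the same subfamily, stayed between 0.445 and 2.20 CPM and was not called, and Cyp1b1 stayed between 0.234 and 0.816 CPM. Cyp2f2, which bioactivates naphthalene, had 287, 272 and 272 CPM at RF, 173, 243, 194 and 137 CPM at LC, and 287, 333 and 471 CPM at AL. Again LC was the lowest group. Its fall of −0.96 ± 0.19 at LC against AL (adjusted p = 0.00285) held under all 20 alternatives. Its rise of 0.57 ± 0.19 at RF against LC (adjusted p = 0.0490) was lost under 12 of them, which include leaving out any RF replicate, LC replicate 1, 3 or 4, or AL replicate 3, with an adjusted p of up to 0.215. In mouse liver Cyp1a2 is made mainly around the central vein and Cyp2f2 mainly around the portal vein. Of 12 pericentral markers outside the P450 families, 2 were higher and 6 lower at LC against AL, with a sum of 7406 to 8348 CPM at RF, 3670 to 5057 CPM at LC and 5852 to 10231 CPM at AL. Of 12 periportal markers, 0 were higher and 6 lower, with a sum of 8806 to 11442 CPM at RF, 6620 to 8227 CPM at LC and 10702 to 12551 CPM at AL. Both sums were lowest at LC, and their part in the changes of Cyp1a2 and Cyp2f2 was not tested.

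The Cyp2a subfamily was led by Cyp2a5, the coumarin 7-hydroxylase of mouse liver, with 804 ± 59.3 FPKM at RF, 1203 ± 327 FPKM at LC and 865 ± 209 FPKM at AL. It was not called in any comparison, and its CPM groups overlapped. Cyp2a12, a hydroxylase of bile acids in mouse liver, had 438, 387 and 430 CPM at RF, 279, 468, 326 and 284 CPM at LC, and 513, 638 and 591 CPM at AL. The LC libraries were below AL but overlapped RF, and the change was −0.78 ± 0.17 at LC against AL (adjusted p = 0.00504). At RF against LC it was called higher only without LC replicate 2. Cyp2a22, its close copy at 97.0% coding identity, had 5.49, 5.66 and 6.03 CPM at RF, 18.4, 56.9, 18.2 and 16.5 CPM at LC, and 9.61, 16.4 and 16.6 CPM at AL. LC replicate 2 stood apart from the other LC libraries. The change was −2.26 ± 0.49 at RF against LC (adjusted p = 0.0128), lost without RF replicate 1 (adjusted p = 0.0518) or 2 (0.0585). At LC against AL, 4 alternatives called it higher: library totals, DESeq2 and 2 of the fits on FPKM. Without LC replicate 2 it was called lower at RF against AL. Cyp2a4, a steroid hydroxylase that shares reads with Cyp2a5, ranged from 0.431 to 13.8 CPM within LC and was not called.

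The Cyp2d subfamily had 1 call among its 8 members, at LC against AL (12.5%, against 31.5% of all genes). Cyp2d12 had 5.98, 5.15 and 8.88 CPM at RF, 4.71, 5.98, 4.63 and 4.17 CPM at LC, and 14.9, 15.8 and 12.8 CPM at AL. Both RF and LC lay below AL. It fell by 1.57 ± 0.20 on the log2 scale at LC against AL (adjusted p = 0.000301) under all 20 alternatives, and changed by −1.12 ± 0.22 at RF against AL (adjusted p = 0.104), called by DESeq2 and without RF replicate 3. Cyp2d9, a steroid hydroxylase higher in male mice, was the highest member of the subfamily per length, at 750 ± 77.0 FPKM at RF, 872 ± 154 FPKM at LC and 722 ± 108 FPKM at AL, and was not called. Cyp2d12 and Cyp2d9 are 92.1% identical in coding sequence, and Cyp2d12 counts were not whole in 9 libraries.

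Of the 5 Cyp3a members tested, Cyp3a25 was called higher at LC against AL (20%, against 31.5% of all genes). At RF against LC 40% were called, against 22.1% of all genes. Cyp3a enzymes metabolise steroids and a wide range of drugs. Cyp3a25 had 513, 410 and 536 CPM at RF, 782, 960, 607 and 841 CPM at LC, and 641, 541 and 500 CPM at AL. LC replicate 3 lay below AL replicate 2, so LC and AL overlapped, while RF lay below LC. The change was 0.51 ± 0.17 at LC against AL (adjusted p = 0.0341), which ended on leaving out any of LC replicates 1, 2 and 4 or of AL replicates 3 and 4, with an adjusted p of up to 0.132, and with the 2 groups alone (0.0586). At RF against LC it was −0.71 ± 0.17 (adjusted p = 0.0103), lost without RF replicate 2 (0.0607). Cyp3a59, 97.5% identical to Cyp3a25, had 29.4, 21.2 and 29.8 CPM at RF, 35.4, 54.2, 34.6 and 40.3 CPM at LC, and 38.8, 30.2 and 31.3 CPM at AL. RF lay below LC, and LC overlapped AL. It changed by −0.62 ± 0.18 at RF against LC (adjusted p = 0.0254), lost without LC replicate 2 (0.0538) or RF replicate 2 (0.123). At LC against AL it was called higher with library totals and in the 3 fits on FPKM. Cyp3a11, the highest Cyp3a member per length and a target of PXR, had 550 ± 25.5 FPKM at RF, 554 ± 78.5 FPKM at LC and 420 ± 100 FPKM at AL, and was not called in edgeR's test, while 2 of the 3 fits on FPKM called it higher at LC against AL. Cyp3a13, another PXR target, had 44.8 ± 16.1 FPKM at RF, 47.3 ± 10.9 FPKM at LC and 44.1 ± 0.398 FPKM at AL and was not called.

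Cyp2r1, the vitamin D 25-hydroxylase, had 10.6, 12.3 and 10.4 CPM at RF, 5.71, 6.83, 5.39 and 6.65 CPM at LC, and 9.20, 10.4 and 11.2 CPM at AL. LC lay below both other groups. It changed by −0.74 ± 0.16 at LC against AL (adjusted p = 0.00385), lost on FPKM (adjusted p of up to 0.0904), and by 0.86 ± 0.16 at RF against LC (adjusted p = 0.00291). Cyp2u1, a hydroxylase of long-chain fatty acids under 5 CPM and higher in male mice, had 5.55, 4.06 and 3.81 CPM at RF, 2.32, 1.85, 2.42 and 1.82 CPM at LC, and 4.00, 3.75 and 3.86 CPM at AL. Its LC libraries were likewise the lowest. The change was −0.87 ± 0.22 at LC against AL (adjusted p = 0.00977), lost with library totals (adjusted p = 0.0806) and on FPKM, and 1.08 ± 0.22 at RF against LC (adjusted p = 0.00481). It shares 10.4% of its stretches of 100 bases with the gene 4930534D22Rik.

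Summed over a subfamily in TMM-scaled CPM, 5 of 7 totals overlapped between LC and AL, and all 7 between RF and AL. The Cyp1a sum in TMM-scaled CPM was lower at LC than at AL (log2 ratio −0.94) and higher at RF than at LC (1.07), and the Cyp2b sum was higher at LC than at AL (2.26), with groups that did not overlap. The corresponding LC against AL ratios were −0.03 for Cyp2a, −0.25 for Cyp2c, −0.08 for Cyp2d, −0.43 for Cyp2j and 0.25 for Cyp3a, all with overlapping groups. For LC against AL, summed FPKM gave 0.27 for Cyp2a, 0.096 for Cyp2c, 0.23 for Cyp2d and 0.090 for Cyp2j. The direction of these sums depended on the scale. At RF against LC the groups were also apart for Cyp2b (−2.13), Cyp2c (0.28) and Cyp2j (0.25). In that comparison summed FPKM gave 0.066 for Cyp2c and −0.14 for Cyp2j, whose direction flipped. The Cyp3a sum lay apart between LC and AL in FPKM (log2 ratio 0.55) and overlapped in TMM-scaled CPM. No test was run on the sums.

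**Figure D4:**
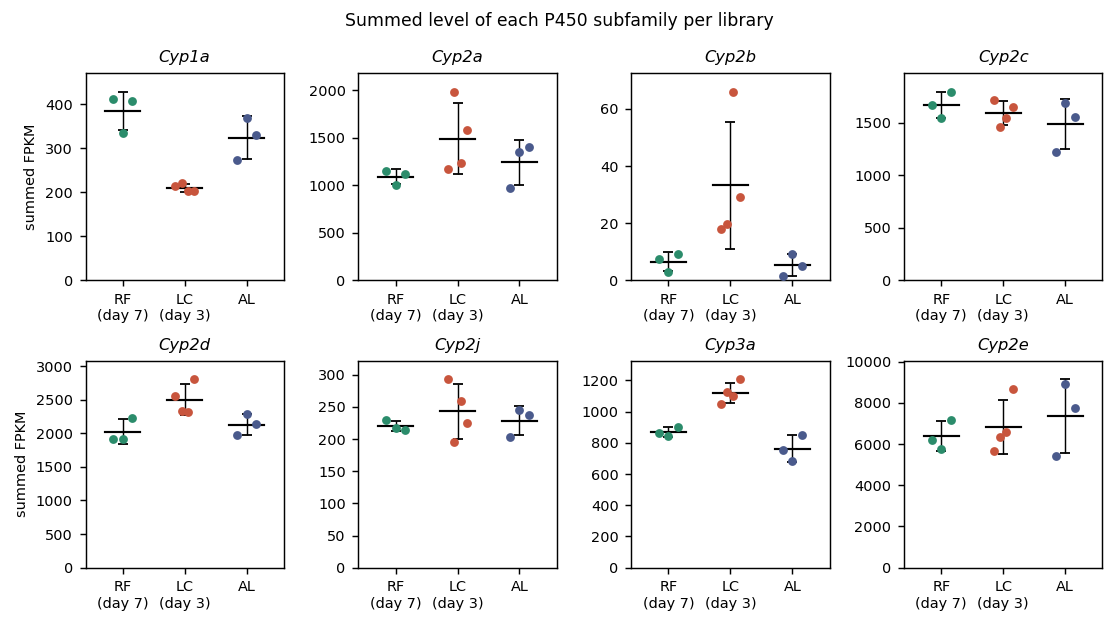
Summed FPKM (vertical axis, from 0) of 8 subfamilies in each library, with points for the libraries of RF, LC and AL, a line for the group mean and bars for 1 SD. The LC libraries lie apart from both other groups for Cyp1a (202.7 to 221.4 FPKM), Cyp2b (18.03 to 65.92 FPKM), Cyp2d (2322 to 2802 FPKM) and Cyp3a (1051 to 1207 FPKM). In TMM-scaled CPM the LC sums of Cyp2d and Cyp3a overlapped both other groups. The median log2 change of all genes at LC against AL was 0.24 on log2(FPKM + 1) and 0.05 with TMM.

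RNA for the receptor CAR was higher at LC, and with TMM scaling and all libraries no listed CAR target was called higher there. Nr1i3, which encodes CAR, was at 261 ± 16.8 CPM at RF, 646 ± 59.0 CPM at LC and 303 ± 46.6 CPM at AL (SD). It was higher at LC than at AL (log2 change 1.09 ± 0.14 SE, adjusted p = 0.000304) and lower at RF than at LC (−1.31 ± 0.14, adjusted p = 0.000149). Of 6 listed CAR targets, 0 were higher and 2 lower at LC against AL (Cyp2c29 and Cyp2c55). Of all genes tested, 16.0% were higher and 15.6% lower in that comparison. With library totals and on FPKM, Cyp2c37 and Cyp2c54 were called higher. Nr1i2 and Ahr were not called, at 193 ± 50.3 and 79.1 ± 16.7 CPM at LC against 179 ± 41.0 and 63.7 ± 22.8 CPM at AL. Of 3 PXR targets 1 was higher (Cyp3a25), and of 3 targets of the aryl hydrocarbon receptor 1 was lower (Cyp1a2). Of 21 receptors and regulators tested, 3 were higher (Nr1i3, Tef and Nr1h4) and 1 lower (Cebpa) at LC against AL. All these small counts stand beside the same shares of all genes, and the activity of the receptors was not tested.

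Of 9 genes listed under electron transfer, 1 was higher and 6 were lower at LC against AL. The list was Por, Cyb5a, Cyb5b, Cyb5r1, Cyb5r3, Pgrmc1, Pgrmc2, Fdx1 and Fdxr. Of all genes tested, 16.0% were higher and 15.6% lower. Cyb5r3, a cytochrome b5 reductase, was at 540 ± 61.1 CPM at RF, 212 ± 19.7 CPM at LC and 502 ± 131 CPM at AL, with a log2 change of −1.25 ± 0.17 at LC against AL (adjusted p = 0.000348). Cyb5a, cytochrome b5 itself, changed by −0.81 ± 0.15 (adjusted p = 0.00200), whereas Cyb5r1 changed by 1.28 ± 0.22 (adjusted p = 0.00121). Por, the oxidoreductase that serves all these enzymes, was not called, at 507 ± 111 CPM at RF, 635 ± 195 CPM at LC and 657 ± 118 CPM at AL. Among genes of heme synthesis and breakdown, Blvrb and Ppox were higher at LC than at AL and Hmox1 and Cpox were lower, and Alas1, which begins heme synthesis, was not called.

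Members that differ between the sexes in mouse liver were mostly scarce. Of 9 members listed as higher in female liver, 8 were measured and 4 passed the filter, and their summed level was 5.94 to 22.3 CPM at RF, 32.0 to 106 CPM at LC and 4.13 to 16.9 CPM at AL. Cyp2b9, at 25.6 to 91.0 CPM at LC, made up most of that sum and was the only one called with all libraries in edgeR. Cyp2c69 was called higher at LC against AL by DESeq2 and without LC replicate 3. Cyp2c40 ranged from 0.961 to 3.60 CPM at RF, from 0.400 to 3.97 CPM at LC and from 0.427 to 1.26 CPM at AL. Cyp2c69 ranged from 0.373 to 1.13 CPM at RF, from 0.108 to 3.29 CPM at LC and from 0.127 to 0.237 CPM at AL. Groups overlapped for Cyp2c40, and for Cyp2c69 between LC and the other groups. In the growth hormone path, 2 of 10 genes, Cux2 among them, were higher and 1 was lower at LC against AL. Of all genes tested, 16.0% were higher and 15.6% lower, and the other genes called on this list are not named here. Cux2, a repressor linked to female-type expression, was at 0.682 ± 0.336 CPM at RF, 5.59 ± 5.06 CPM at LC and 1.04 ± 0.339 CPM at AL (SD). Its log2 change at LC against AL was 2.40 ± 0.68 (SE, adjusted p = 0.0239 in edgeR). The SD of Cux2 at LC was nearly as large as its mean, and its call was not examined under the alternatives. The part of Cux2 in the levels of these members was not tested. No source used here gives the sex of the mice.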

How the data were processed

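Liver RNA of 10 samples was sequenced after poly(A) enrichment with libraries that keep no strand (BGI DNBSEQ; RNA integrity 6.6 to 8.5), per the labels' protocols. The authors deposited estimated (expected) counts per gene and FPKM, which is scaled to transcript length and depth. The submitters' processing notes name HISAT, Bowtie2 and GRCm39 without a version or role, and no source used here gives the counting program. Of the deposited estimated counts 10.9% were not whole (tolerance 1e-06), and they were rounded. Without strand, overlapping genes cannot be told apart.

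Genes were filtered with filterByExpr (12789 of 17359 left), scaled by TMM and fitted with edgeR 4.0.16 (R 4.3.3; quasi-likelihood, robust, 1 mean per group) to the 10 libraries together. A call needs a p under 0.05 after Benjamini-Hochberg adjustment over the genes tested, and the standard error is the absolute log2 change over the square root of F. Steps were tested on simulated data. Coding sequences came from GENCODE M21 and were aligned with Biopython 1.88.

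Alternatives were relative log expression, library totals, DESeq2 1.42.0, other filters, the 2 groups alone, a replicate block, limma 3.58.1 on FPKM with pseudocounts of 1 and 0.1, and each library left out. Named were members called with a mean of at least 5 CPM, the highest member per length of the main subfamilies, and listed receptor targets and sex-biased members. The full count for the list of heme synthesis and breakdown is not reported here. Members and lists were chosen with earlier results of these data known. Log2 changes are printed only for named members called or beyond 1.5 standard errors, and not for all of these, a limit set after the alternatives were seen.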

Additional observations from a re-analysis of the deposited data

Results flagged for a closer look

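Among the 31 members looked at within LC, 3 had 1 library far from the other 3, and chance marks about 1 in 20 such groups. Cyp2a22 had 56.9 CPM in LC replicate 2, with the others between 16.5 and 18.4 CPM. Cyp2c70 had 70.4 CPM in the same library, with the others between 43.2 and 47.7 CPM. Cyp2c69 had 3.29 CPM in LC replicate 1, with the others between 0.108 and 0.630 CPM. Cyp2c69 shares 36.3% of its stretches of 100 bases with other genes.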

How the results depend on the processing

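Of 28 calls, 15 held under all 20 alternatives, 13 were lost under at least 1, and 0 changed sign. Of 93 pairs of a named member and a comparison, 39 were not called and had a log2 change within 1.5 standard errors, and none of these is printed. Of these 39, 23 changed sign under at least 1 alternative, 86 times in 738 values, and never with a call in the other direction. At LC against AL, members called higher numbered 13 with library totals, 14 with limma on log2(FPKM + 1) and on log2(FPKM + 0.1), 12 with no filter on FPKM and 2 with the compared groups alone, and members called lower numbered 7, 7 and 6 with the same 3 fits on FPKM. At RF against LC, members called lower numbered 9 with library totals, 11, 11 and 10 with these fits. DESeq2 called 1 member lower at RF against AL.

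Leaving out a library gave 2 to 4 members higher and 9 to 15 lower at LC against AL, 0 to 1 lower at RF against AL (1 without RF replicate 3 or LC replicate 2), and 6 to 8 higher and 1 to 7 lower at RF against LC (1 without RF replicate 2, 3 without RF replicate 1). Subfamily log2 ratios moved with library totals and with summed FPKM. At LC against AL they gave −0.61 and −0.62 for Cyp1a, 0.073 and 0.096 for Cyp2c, 0.24 and 0.23 for Cyp2d, −0.10 and 0.090 for Cyp2j, and 0.56 and 0.55 for Cyp3a. At RF against LC they gave 0.87 and 0.87 for Cyp1a, 0.079 and 0.066 for Cyp2c, −0.31 and −0.31 for Cyp2d, 0.039 and −0.14 for Cyp2j, and −0.36 and −0.36 for Cyp3a. At RF against AL they gave 0.20 and 0.19 for Cyp3a. Library totals and FPKM keep a shift in the median of all genes that TMM removes.

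With the replicate number as a block, 3 members were higher and 11 lower at LC against AL, 0 at RF against AL, and 7 higher and 7 lower at RF against LC. The block ended the calls of Cyp3a25 at LC against AL (adjusted p = 0.0644) and of Cyp2f2 at RF against LC (0.0962), and added Cyp2b9 and Cyp2c37 at RF against LC. Deviations of same-numbered libraries correlated at −0.05 to 0.07, −0.04 to 0.01 and 0.05 to 0.25 in these comparisons. The number was not taken as a pairing because the labels do not give it a meaning. At RF against LC each library correlated best with its own number in all 3 pairs, and at LC against AL it did not.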
